A study of Homo sapiens with 6 samples.

Results

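To see how LOC101927668 affected the antioxidant response in colorectal cancer cells, 9 target genes of the transcription factor NRF2 were examined in RNA sequencing data of RKO cells: NQO1, HMOX1, GCLM, GCLC, TXNRD1, SRXN1, SLC7A11, ME1 and OSGIN1. They were chosen by symbol from the 58735 genes of the table, and 8 of the 9 passed the filter on low expression, ME1 being the exception. RKO is an established human colorectal carcinoma line. Of the 6 libraries, 3 came from control cells (Vector) and 3 from cells overexpressing LOC101927668 (LOC_OE). Both cell populations were RKO carrying a lentiviral construct under puromycin selection, the control with the empty vector and LOC_OE with the full-length lncRNA, and whether they were clones or pools was not stated. Whether the replicates of a group came from separate transductions was not stated either. Expression was given as FPKM, fragments scaled by gene length and by a size factor of each library, so levels can be compared between libraries. A comparison between genes holds only as far as the length used, all annotated exons merged, is that of the RNA present.

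The libraries held between 15008842 and 18410231 reads on genes. The library sizes behind the FPKM were not these totals but median-of-ratios sizes, set by the typical gene. LOC_OE replicate 1 had the most reads, 18410231, but a size of 1.60e+07, against 17837954 reads and 1.88e+07 for Vector replicate 1. The FPKM of a library thus summed to 264150 to 280648 in Vector and 305702 to 360434 in LOC_OE, highest in LOC_OE replicate 1. AC005062.1, the annotated gene of LOC101927668, had at most 1 read in a Vector library and 231 to 276 reads in the LOC_OE libraries. Of 9 colorectal epithelial markers, EPCAM, KRT8, KRT18 and CDX2 passed the filter in these cells, whereas CDH1 had 0 reads in every library and KRT19, KRT20, VIL1 and CDH17 were at or near 0. None of the 4 passed the test between groups, although the 9 markers summed to 39.4 to 41.5 FPKM in Vector and 48.4 to 89.6 FPKM in LOC_OE. The 6 fibroblast markers summed to at most 0.203 FPKM and the 6 blood cell markers to at most 1.21 FPKM in a library, almost all of the latter from CD68. LOC_OE replicate 1 stood apart from the other LOC_OE libraries, with Pearson correlations across genes of 0.967 and 0.962 against 0.982 between replicates 2 and 3. Values without it are given for many of the genes and lists that it moved.

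NRF2, encoded by NFE2L2, is held in the cytoplasm and marked for degradation by KEAP1 and the CUL3 ubiquitin ligase. Oxidants and electrophiles disable KEAP1, after which NRF2 enters the nucleus, pairs with small MAF proteins and binds antioxidant response elements, sites from which BACH1 represses some of the same genes. Its targets make and recycle glutathione and thioredoxin, supply NADPH, and detoxify quinones and haem. In colorectal and other cancers this programme is known for protecting tumor cells from oxidative stress and drugs.

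The antioxidant response element has the core TGACNNNGC, which was searched on both strands of RefSeq promoter windows on GRCh38.p14, from 250 bases before to 50 bases after a gene's start. Windows were found for 7 of the 9 genes, 8 windows in all because TXNRD1 had 2, and HMOX1 and SLC7A11 were not matched. The second TXNRD1 window, chr12:104286782-104287081, lay inside the span of the gene given below. The core was present in 4 of the 8 windows, those of GCLM, ME1 and TXNRD1, and in 13.3% of all 35116 windows. The genes were chosen as NRF2 targets, so the presence of the core in their promoters is no finding. The matches are printed here with 10 bases on either side because GCLM was higher in LOC_OE, TXNRD1 did not pass the test and ME1 was not detected, written 5′ to 3′ on the strand of the gene with the core in capitals. GCTTAGTCA, GCACCGTCA, GCTCCGTCA and GCTTTGTCA are the core read from the opposite strand.
GCLM, chr1:93909446-93909474, minus strand: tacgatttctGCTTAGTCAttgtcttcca
ME1, chr6:83431170-83431198, minus strand: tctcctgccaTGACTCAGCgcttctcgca
ME1, chr6:83431022-83431050, minus strand: gctgcagtcaGCACCGTCAccccagcagc
TXNRD1, chr12:104215670-104215698, plus strand: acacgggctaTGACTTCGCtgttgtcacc
TXNRD1, chr12:104215761-104215789, plus strand: gcgtccttcgGCTCCGTCAgttcccacag
TXNRD1, chr12:104286920-104286948, plus strand: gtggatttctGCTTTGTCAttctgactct
Distances are from the RefSeq start of the window, which for GCLM and ME1 differs from the gene coordinates given below. The GCLM match begins 34 bases before that start. The first ME1 match begins 137 bases before its start and contains TGACTCA, the letters that AP-1 also recognises. The second ME1 match begins 11 bases after the start. No match in the windows of NQO1, GCLC, OSGIN1 and SRXN1 says only that these letters were not in those windows.

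Before any comparison, the genes covered a wide range of expression in the Vector cells. TXNRD1 was the most highly expressed, at 59.9 ± 2.76 FPKM (SD, n = 3 libraries), above 96.8% of the genes tested. HMOX1 followed at 20.7 ± 2.36, NQO1 at 14.0 ± 1.74 and OSGIN1 at 9.32 ± 0.650 FPKM. GCLC and GCLM, the subunits of one enzyme, stood next to each other at 5.84 ± 0.467 and 5.76 ± 0.217 FPKM with overlapping ranges, and so did SRXN1 and SLC7A11 at 3.98 ± 0.506 and 3.87 ± 0.442 FPKM. All other neighbours in this order were separated in every Vector library. In LOC_OE, NQO1 moved up to the level of HMOX1, with which its range overlapped, and GCLM moved well above GCLC. OSGIN1 moved from place 4 to place 7, SRXN1 from place 7 to place 8, and SLC7A11 from place 8 to place 5, although one of its LOC_OE libraries was the lowest of all 6.

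The NRF2 target genes did not move together between Vector and LOC_OE. NQO1 and GCLM rose about as much as OSGIN1 fell, SRXN1 fell to a lesser extent, and HMOX1, GCLC, TXNRD1 and SLC7A11 did not pass the test. Expression was compared with limma on log2(FPKM + 1), a scale that understates the change of lowly expressed genes, and p-values were adjusted over all 16061 genes tested by the Benjamini-Hochberg method. At an adjusted p-value under 0.05, 2 of the 8 tested targets were higher and 2 were lower in LOC_OE, against 10.7% higher and 9.74% lower over all genes, 20.4% in all. With a fold change of at least 1.5 besides, 2 were higher and 1 was lower, against 4.63% and 5.58% of all genes tested, 10.2% in all. The same 4 genes had no overlap between the groups, as had 45.3% of all genes tested. The median log2 fold change of the 8 genes was 0.06, beside 0.02 over all genes tested. RNA was taken from whole cultures, so a change in the share of cells expressing a gene and a change in RNA per cell cannot be told apart.

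**Figure D1:**
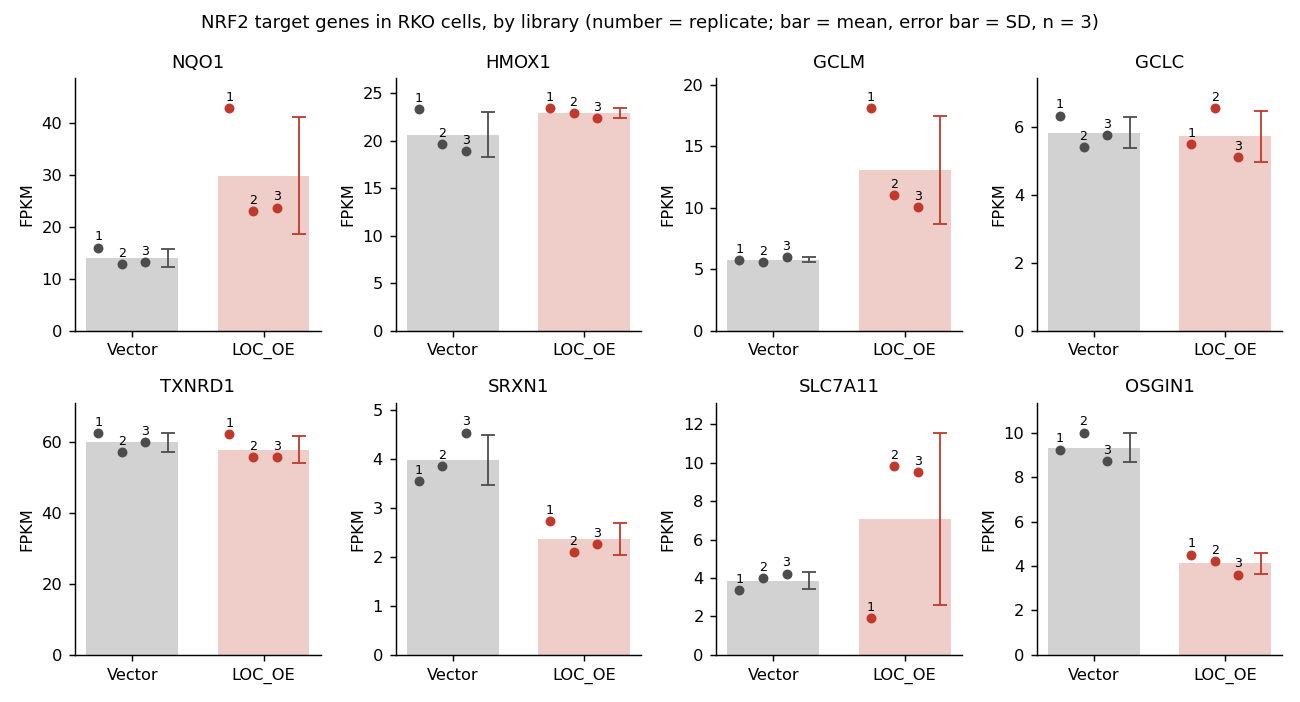
FPKM (vertical axes, each from 0) of 8 NRF2 target genes in the Vector (grey) and LOC_OE (red) libraries. Points are libraries with their replicate number, bars are group means and error bars are SD (n = 3); NQO1 and GCLM are higher and SRXN1 and OSGIN1 lower in all 3 LOC_OE libraries, while SLC7A11 is at 1.90 FPKM in LOC_OE replicate 1 and at 9.82 and 9.53 FPKM in replicates 2 and 3.

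NQO1 (ENSG00000181019, chromosome 16 from 69706996 to 69726951, minus strand, GRCh38) encodes the quinone reductase that is the textbook readout of NRF2 activity. It was at 15.99, 12.8 and 13.3 FPKM in Vector replicates 1, 2 and 3 and at 42.9, 23.0 and 23.7 FPKM in LOC_OE replicates 1, 2 and 3. Every LOC_OE library was above every Vector library, and LOC_OE replicate 1 was far above the other two. The mean FPKM was 2.13-fold higher in LOC_OE, and the log2 fold change was 0.99 (standard error, SE, 0.24, limma adjusted p = 0.0361). Without LOC_OE replicate 1 the log2 fold change was 0.70 (limma adjusted p = 0.00421). NQO1 missed the threshold without any single Vector library, with an adjusted p-value of up to 0.128 from limma without Vector replicate 2, and narrowly without LOC_OE replicate 2 (limma adjusted p = 0.0501).

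HMOX1 (ENSG00000100292, chromosome 22 from 35380361 to 35394214, plus strand) encodes haem oxygenase 1, which splits haem into biliverdin, iron and carbon monoxide and is kept low by BACH1 in unstressed cells. Its FPKM was 23.3, 19.7 and 18.9 in Vector and 23.4, 23.0 and 22.4 in LOC_OE. The LOC_OE libraries lay close together at the level of Vector replicate 1, so the groups overlapped. The log2 fold change was 0.15, with a 95% confidence interval from −0.09 to 0.38 (limma adjusted p = 0.316), and its sign turned under 2 of the scalings tried, to −0.10 with equal sums of FPKM and −0.02 with quantile normalization.

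Glutamate-cysteine ligase makes the first and rate-limiting step of glutathione synthesis, with GCLC as the catalytic subunit and GCLM as the modifier that raises its activity. GCLM (ENSG00000023909, chromosome 1 from 93885205 to 93909456, minus strand) was at 5.71, 5.57 and 6.0 FPKM in Vector and at 18.1, 11.0 and 10.0 FPKM in LOC_OE. Its groups were well separated, again with the highest level in LOC_OE replicate 1. GCLM thus had a log2 fold change of 1.01 (SE 0.21, limma adjusted p = 0.0217), and the ratio of means was 2.26. Without LOC_OE replicate 1 the log2 fold change of GCLM was 0.77 (limma adjusted p = 0.00124), whereas without any one Vector library its adjusted p-value was between 0.0759 and 0.0904 from limma.
GCLC (ENSG00000001084, chromosome 6 from 53497341 to 53616970, minus strand) was at 6.34, 5.42 and 5.76 FPKM in Vector and at 5.51, 6.56 and 5.12 FPKM in LOC_OE. LOC_OE replicate 2 was above and replicate 3 just below all Vector libraries, so the groups overlapped. Its log2 fold change was −0.03, with a 95% confidence interval from −0.29 to 0.23 (limma adjusted p = 0.883), and the value of GCLM, 1.01, lies outside that interval. The ratio of GCLM to GCLC, both per length, was 0.901, 1.03 and 1.04 in the Vector libraries and 3.28, 1.68 and 1.96 in the LOC_OE libraries. The modifier subunit thus went from parity with the catalytic subunit to a mean ratio of 2.31 ± 0.857 (SD, n = 3), and every LOC_OE ratio was above every Vector ratio (exact permutation test, two-sided, on log2 ratios, p = 0.10, the smallest that 3 against 3 libraries allow).

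SLC7A11 (ENSG00000151012, chromosome 4 from 138164097 to 138242349, minus strand) encodes xCT, the light chain of the antiporter that imports cystine for glutathione synthesis, and is also a target of ATF4. It was at 3.38, 3.998 and 4.23 FPKM in Vector. In LOC_OE it was at 1.90 FPKM in replicate 1, below every Vector library, and at 9.82 and 9.53 FPKM in replicates 2 and 3, above every Vector library. These levels rested on 294 reads in LOC_OE replicate 1 and on 1519 and 1351 reads in the other two, so counting error is small beside the difference. With all libraries the log2 fold change was 0.51 (SE 0.50, limma adjusted p = 0.501) with a 95% confidence interval from −0.69 to 1.71. Without LOC_OE replicate 1 the log2 fold change was 1.14 (limma adjusted p = 0.00114), and array weights, which give less weight to a library that departs from its group, gave 1.10 (limma adjusted p = 0.0016).
SLC3A2, the heavy chain that carries xCT to the membrane, did not share this pattern to the same degree, at 71.0, 66.2 and 62.7 FPKM in Vector and 56.6, 69.9 and 65.2 FPKM in LOC_OE. CHAC1, a glutathione-degrading enzyme and ATF4 target, had the same order, at 3.70, 3.61 and 3.84 FPKM in Vector against 2.73, 6.03 and 5.49 FPKM in LOC_OE. GLRX, a glutathione gene, had this order too, at 82.0, 76.8 and 73.3 FPKM in Vector and 58.9, 97.8 and 90.4 FPKM in LOC_OE. NFE2L1 and KRT8 had it as well. These genes are named for comparison after their values were seen, and none passed the test. Limma adjusted p-values were 0.710 for SLC3A2, 0.518 for CHAC1, 0.857 for GLRX, 0.363 for NFE2L1 and 0.992 for KRT8. A link of this order to ATF4 was not tested.

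TXNRD1 (ENSG00000198431, chromosome 12 from 104215779 to 104350305, plus strand) encodes the cytosolic selenoprotein that reduces thioredoxin with NADPH. It was at 62.5, 57.0 and 60.0 FPKM in Vector and at 62.1, 55.7 and 55.7 FPKM in LOC_OE. As the most abundant of the targets, with at least 5489 reads in each library, it had the smallest counting error. For TXNRD1 the log2 fold change was −0.05, with a 95% confidence interval from −0.26 to 0.16 (limma adjusted p = 0.713). It was called lower under 2 scalings only, with equal sums of FPKM (log2 fold change −0.31, limma adjusted p = 0.0190) and after quantile normalization (log2 fold change −0.32, limma adjusted p = 0.0348). Equal sums of FPKM moved the median of all genes tested from 0.02 to −0.18, and relative to that median TXNRD1 stood at −0.13. The span of TXNRD1 holds RPL18AP3 on the same strand, a pseudogene with 3969 reads in Vector and 3848 reads in LOC_OE.

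SRXN1 (ENSG00000271303, chromosome 20 from 646615 to 653370, minus strand) encodes sulfiredoxin, which restores peroxiredoxins that have been overoxidised. Its FPKM was 3.56, 3.85 and 4.54 in Vector and 2.73, 2.10 and 2.27 in LOC_OE. All LOC_OE libraries were below all Vector libraries. The log2 fold change was −0.56 (SE 0.12, limma adjusted p = 0.0225), a 1.48-fold decrease on the log2(FPKM + 1) scale. The pseudocount decided that this fell short of 1.5-fold, since the ratio of mean FPKM was 0.595 and the log2 fold change was −0.73 with a pseudocount of 0.1. This was the least secure of the 4 calls, since it was lost in 5 of 6 fits missing a library, with a limma adjusted p of up to 0.0904 without Vector replicate 2. It rested on as few as 90 reads in a library, for which counting error alone is 10.5%.

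OSGIN1 (ENSG00000140961, chromosome 16 from 83948282 to 83966332, plus strand) encodes a growth inhibitor induced by oxidative stress. It was at 9.24, 10.0 and 8.72 FPKM in Vector and at 4.51, 4.24 and 3.62 FPKM in LOC_OE. All LOC_OE libraries, replicate 1 included, lay at about the same reduced level. The log2 fold change was −1.01 (SE 0.10, limma adjusted p = 0.00459), and it ranked 106 among all genes tested by p-value. OSGIN1 was the only target that kept its call in all 6 fits that left out a library, with log2 fold changes between −1.07 and −0.94 and an adjusted p-value of at most 0.0389 from limma. AC009119.2, an overlapping gene on the same strand, had 76 reads in Vector and 28 reads in LOC_OE and could share reads with OSGIN1.

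ME1 (ENSG00000065833, chromosome 6 from 83210389 to 83431071, minus strand) encodes the cytosolic malic enzyme, which makes NADPH from malate. It had 0 reads in each of the 6 libraries. With 3 reads as the limit of detection, this allows at most 0.0606 FPKM in a library. The mitochondrial malic enzymes were expressed and higher in LOC_OE. ME3 was at 2.22, 2.20 and 2.56 FPKM in Vector and at 5.50, 5.90 and 5.69 FPKM in LOC_OE, a log2 fold change of 1.01 (SE 0.084, limma adjusted p = 0.00328). ME2 rose from 6.54 ± 0.282 to 9.73 ± 0.415 FPKM (SD, n = 3 libraries each; log2 fold change 0.51, limma adjusted p = 0.0104).

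**Figure D2:**
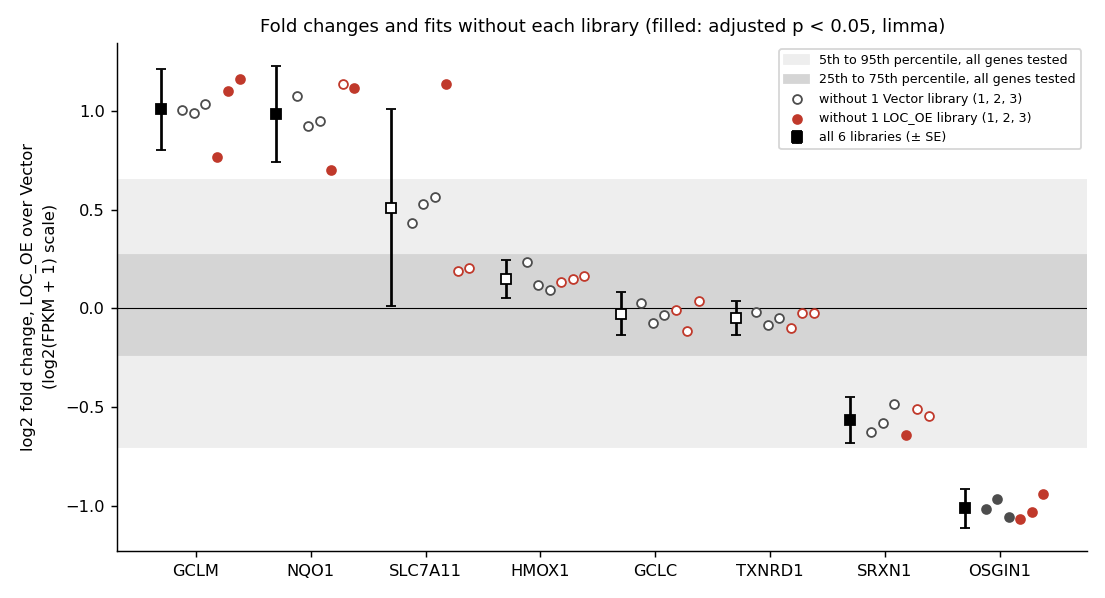
Log2 fold change of LOC_OE over Vector on the log2(FPKM + 1) scale (vertical axis) for 8 NRF2 target genes. Squares show all 6 libraries with the SE, circles the fits without Vector (grey) or LOC_OE (red) replicates 1, 2 and 3 in turn, filled symbols an adjusted p-value under 0.05, and grey bands the 5th to 95th and 25th to 75th percentiles of all genes tested (−0.70 to 0.65 and −0.24 to 0.27). OSGIN1 stays filled throughout, and SLC7A11 is filled only without LOC_OE replicate 1.

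The expression of NRF2 itself and of its regulators was then examined. NFE2L2 was at 10.5, 8.94 and 9.64 FPKM in Vector and at 12.6, 11.5 and 11.6 FPKM in LOC_OE. Its libraries did not overlap, but with a log2 fold change of 0.28 it did not pass the test (limma adjusted p = 0.0720, unadjusted 95% confidence interval 0.06 to 0.49). NFE2L2 was called higher with array weights (log2 fold change 0.26, limma adjusted p = 0.00942), whereas equal sums of FPKM left a log2 fold change of 0.04 (limma adjusted p = 0.769). KEAP1 was at 22.4, 21.1 and 20.3 FPKM in Vector and at 36.0, 20.9 and 19.3 FPKM in LOC_OE, so that only LOC_OE replicate 1 was high. For KEAP1 the log2 fold change was 0.19 (limma adjusted p = 0.579) and −0.08 without that library. BACH1, the repressor at the same elements, was at 8.29, 8.93 and 9.43 FPKM in Vector and at 5.86, 8.53 and 8.30 FPKM in LOC_OE, lowest in LOC_OE replicate 1. BACH1 had a log2 fold change of −0.22 with that library (limma adjusted p = 0.309) and of −0.07 without it.
Of the 12 genes of NRF2 and its regulators, all tested, 1 was lower and 0 were higher, 8.33% against 20.4% of all genes tested. Without LOC_OE replicate 1 there were 2 of each, in a fit that called 5738 of all 15651 genes tested. The gene called with all libraries was SQSTM1, which encodes p62, an autophagy adaptor that sequesters KEAP1 and is also a target of NRF2. SQSTM1 was at 101, 95.8 and 91.3 FPKM in Vector and at 45.4, 46.1 and 42.4 FPKM in LOC_OE. Its libraries were tightly grouped on each side, LOC_OE replicate 1 included. For SQSTM1 the log2 fold change was −1.09 (SE 0.083, limma adjusted p = 0.00292), and it kept its call in all 6 fits that left out a library, at −1.12 to −1.05.

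**Figure D3:**
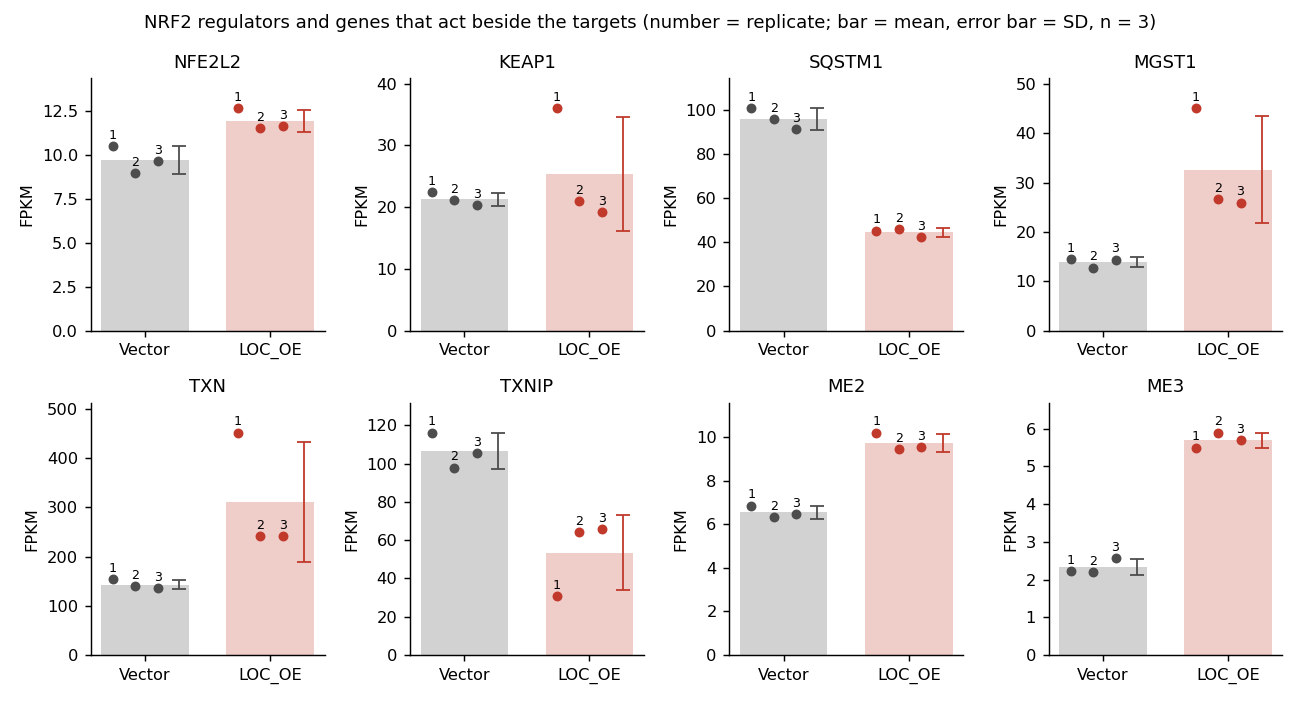
FPKM (vertical axes, each from 0) of NFE2L2, KEAP1 and SQSTM1 and of 5 genes that act beside the targets, in Vector (grey) and LOC_OE (red) libraries. Points are libraries with their replicate number, bars are means and error bars are SD (n = 3); SQSTM1 is between 42.4 and 46.1 FPKM in all LOC_OE libraries, KEAP1 is high only in LOC_OE replicate 1, and ME3 is between 5.50 and 5.90 FPKM in LOC_OE.

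Further genes of the same pathways were taken from 6 lists. In LOC_OE 20 of their 78 tested genes were called, 15 as higher and 5 as lower, 25.6% against 20.4% of all genes tested. The share was 19% for glutathione genes, 38.5% for the thioredoxin and peroxiredoxin system and 36.4% for NADPH-producing enzymes. It was 26.3% for the wider NRF2 list and 25% for superoxide dismutases and catalase. List counts without LOC_OE replicate 1 stand beside 5738 called of all 15651 genes tested in that fit. Rescaled to equal sums of FPKM, which lowers the median of all genes, the same lists held 12 higher and 15 lower genes.
Among genes of glutathione synthesis and use, 4 of 21 tested were higher and 0 were lower, with a median log2 fold change of 0.14. This list held 8 higher and 2 lower without LOC_OE replicate 1, none called without any one Vector library, and 3 higher and 3 lower with equal sums of FPKM, where its median was −0.12. The largest increases were those of MGST1, a membrane-bound glutathione transferase, and CHAC2, a glutathione-degrading enzyme, with log2 fold changes of 1.13 and 1.09 (limma adjusted p = 0.0179 and 0.0339). MGST1 had 14.6, 12.8 and 14.4 FPKM in Vector and 45.1, 26.7 and 25.95 FPKM in LOC_OE, highest in LOC_OE replicate 1 as were NQO1 and GCLM, and its log2 fold change without that library was 0.88. For CHAC2 the log2 fold change without LOC_OE replicate 1 was 0.80. CHAC2 kept its call in 2 of 6 fits missing a library and lost it without the filter (limma adjusted p = 0.0757). GSTK1 and GLRX2, a mitochondrial glutaredoxin, rose by less, with log2 fold changes of 0.54 and 0.39 (limma adjusted p = 0.0128 and 0.0171), but GLRX2 was not called with equal sums of FPKM (limma adjusted p = 0.240) or with the replicate number as a block, the replicate block (limma adjusted p = 0.0518).
In the thioredoxin and peroxiredoxin system, 3 of 13 genes were higher and 2 were lower. Leaving out LOC_OE replicate 1 gave 7 higher and 3 lower, and leaving out any one Vector library gave none. TXN, the thioredoxin that TXNRD1 reduces, was at 154, 139 and 135 FPKM in Vector and at 452, 241 and 241 FPKM in LOC_OE. Its log2 fold change was 1.06 (SE 0.25, limma adjusted p = 0.0331), beside the −0.05 of TXNRD1, and without LOC_OE replicate 1 it was 0.75. PRDX3 and PRDX6, which remove peroxides, had log2 fold changes of 0.77 and 0.70 (limma adjusted p = 0.0355 and 0.0342), and of 0.56 and 0.50 without LOC_OE replicate 1. Without the filter on low FPKM, TXN, PRDX3 and PRDX6 were not called (limma adjusted p = 0.0769, 0.07465 and 0.0720). TXNIP, the inhibitor that binds thioredoxin, fell from 107 ± 9.20 to 53.5 ± 19.6 FPKM (SD, n = 3 libraries each; log2 fold change −1.05, limma adjusted p = 0.0468), and PRDX5 fell by 0.49 on the log2 scale (limma adjusted p = 0.0230). TXNIP was close to the threshold: its call was lost in 4 of 6 fits missing a library, with a pseudocount of 0.1, without the variance trend, without the filter and with the replicate block (limma adjusted p = 0.0503, 0.0506, 0.1015 and 0.0735 for the last 4 settings). Without LOC_OE replicate 1 the log2 fold change of TXNIP was −0.70 (limma adjusted p = 0.00228). The median of the 13 genes over the Vector mean was 0.90, 0.25 and 0.27 on the log2 scale in the LOC_OE libraries 1, 2 and 3.
Among NADPH-producing enzymes, 4 of 11 tested were higher and 0 were lower. Besides ME2 and ME3, these were MTHFD2, of mitochondrial folate metabolism, and IDH1, the cytosolic isocitrate dehydrogenase, with log2 fold changes of 0.81 and 0.53 (limma adjusted p = 0.0131 and 0.0412). Both calls were lost with equal sums of FPKM (limma adjusted p = 0.0674 for MTHFD2 and 0.292 for IDH1) and with quantile normalization (limma adjusted p = 0.105 and 0.216). IDH1 was also lost with the replicate block (limma adjusted p = 0.084) and kept in only 1 of 6 fits missing a library. NNT was close to 0 reads in all libraries.

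A wider list of 30 genes tied to NRF2, several of which handle iron and haem, had 4 higher and 1 lower among 19 tested. TFRC, the transferrin receptor that takes up iron, was at 6.45, 6.28 and 6.56 FPKM in Vector and at 41.2, 15.7 and 15.4 FPKM in LOC_OE (log2 fold change 1.61, SE 0.36, limma adjusted p = 0.0276), and its log2 fold change was 1.16 without LOC_OE replicate 1. The call of TFRC was lost without any one Vector library (limma adjusted p of up to 0.1025) and without the filter (limma adjusted p = 0.0646). UGDH, which supplies glucuronic acid for conjugation, FTH1, the ferritin heavy chain, and FECH, which inserts iron into haem, rose by log2 fold changes of 0.71, 0.63 and 0.59 (limma adjusted p = 0.00933, 0.0162 and 0.00837). UGDH and FTH1 lost their calls without any one Vector library, with limma adjusted p-values of up to 0.0549 and 0.0803. FECH lost its call without Vector replicate 2 or 3 (limma adjusted p = 0.0615 and 0.0525). FTH1 has many processed copies and could share reads with them. EPHX1, the microsomal epoxide hydrolase, fell from 18.7 ± 0.442 to 10.2 ± 1.04 FPKM (SD, n = 3 libraries each; log2 fold change −0.81, limma adjusted p = 0.00627), a decrease kept in all 6 fits that left out a library. The aldo-keto reductases AKR1C1, AKR1C2 and AKR1C3, strong NRF2 targets in other epithelial cells, had 0 reads in every Vector library.
Of 4 tested genes among superoxide dismutases and catalase, only CCS, the copper chaperone of SOD1, passed the test, at 11.0 ± 0.783 FPKM in Vector and 7.02 ± 0.140 FPKM in LOC_OE (SD, n = 3 libraries each; log2 fold change −0.59, limma adjusted p = 0.00872).
Without Vector replicate 2, the 78 genes held 1 higher and 2 lower, and the higher gene was ME3. Without LOC_OE replicate 1, 27 higher and 14 lower genes were called among 77 tested, beside 3101 higher and 2637 lower among all 15651 genes tested. In that fit the NADPH-producing enzymes held 6 higher and 1 lower, the wider NRF2 list 4 higher and 4 lower, and the superoxide dismutases and catalase 0 higher and 3 lower.

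**Figure D4:**
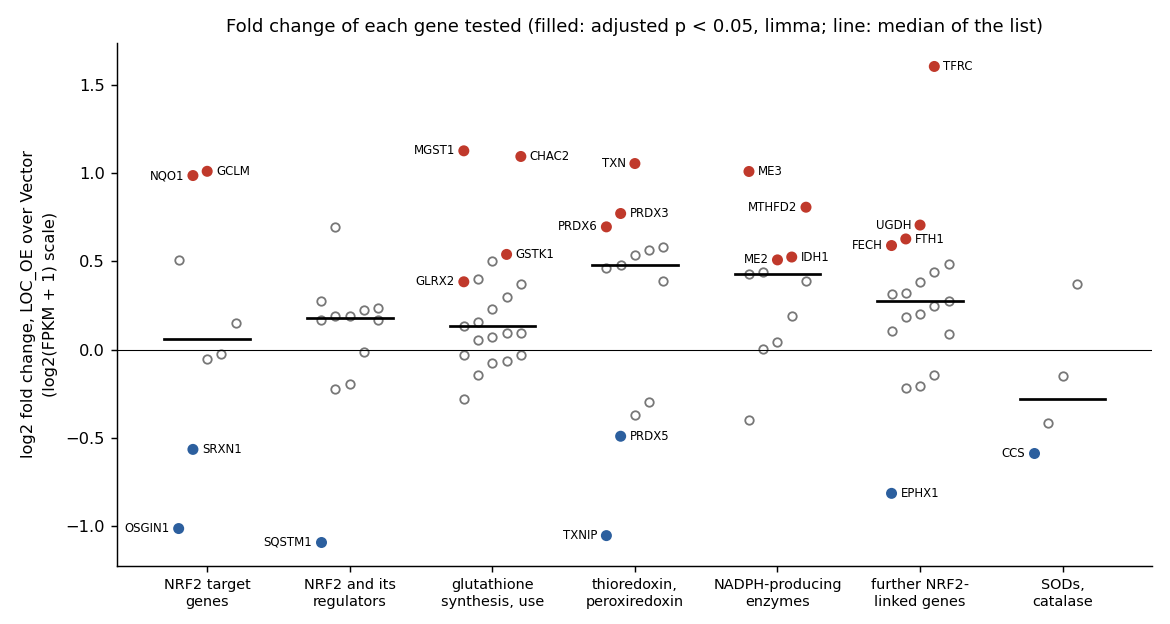
Log2 fold change of LOC_OE over Vector on the log2(FPKM + 1) scale (vertical axis) of each gene tested among the NRF2 targets and the 6 pathway lists (horizontal axis). Filled symbols had an adjusted p-value under 0.05, red higher and blue lower in LOC_OE, and lines are medians; the targets hold 2 genes on either side, and SQSTM1 is the only filled gene among the NRF2 regulators.

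The genes whose expression across the 6 libraries was most like that of OSGIN1, the target with the lowest adjusted p-value, were AC092803.2, TBC1D10A, VWA1, PARM1 and NLGN2, with Pearson correlations between 0.997 and 0.999. The 6 points come from 2 groups and share the difference between them, so these values are descriptions. AC092803.2 and VWA1, at means of 0.1225 and 0.159 FPKM in LOC_OE, passed the filter only through their Vector libraries. The direction of their change was thus fixed in advance. TBC1D10A did not pass the test (limma adjusted p = 0.0612). PARM1 had the largest decrease of these, with a log2 fold change of −1.51, and NLGN2 was the most highly expressed, at 26.3 FPKM in Vector and 20.9 FPKM in LOC_OE.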

How the data were processed

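Gene expression was measured by RNA sequencing in 3 Vector and 3 LOC_OE libraries of RKO cells (NEBNext Ultra kit, Illumina NovaSeq, paired ends). The authors deposited FPKM values, and the submitters' processing notes list HISAT2 2.0.4, StringTie 1.3.0 and hg38. All 58735 gene identifiers matched GENCODE version 29, and 0 value columns were left unused. FPKM times merged exon length was a whole multiple of 1 read (within 0.02 reads for low values) for 100% of values, which gave the reads; counting error is all that these cover, and the strand is not stated. Already on one scale, the FPKM were not rescaled. Genes with at least 0.5 FPKM in at least 3 libraries were fitted with limma 3.58.1 (variance trend, log2(FPKM + 1)) in R 4.3.3, after a test on simulated data. Named are all 9 targets, NFE2L2, KEAP1, BACH1, and of each list up to 6 called genes with the largest change. Members and lists were chosen with earlier results of these data known. P-values measure the spread between libraries, described as biological replicates. Where 2 identifiers shared a symbol, the one with more reads was used. Alternatives are given at the end. Figures were drawn with matplotlib 3.10.9.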

Additional observations from a re-analysis of the deposited data

How the results depend on the processing

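Limits come first from the number of libraries. Leaving out 1 library gave 1 to 5 called NRF2 targets in place of 4, 249 to 5738 called genes in place of 3277, and 3 to 41 called pathway genes in place of 20; the lowest counts came without a Vector library and the highest without LOC_OE replicate 1. Without Vector replicate 1, 2 or 3 and LOC_OE replicates 1, 2 or 3, the called targets numbered 1, 1, 1, 5, 2 and 3. The cause was not tested. Without a filter on low FPKM, 2 targets were called (1 higher, 1 lower); NQO1 had an adjusted p of 0.0781 and SRXN1 of 0.0533 from limma. Array weights gave 8086 called genes among 16061 and 53 pathway genes among 78. A fold change of at least 1.5 left 1639 genes, and unadjusted p-values gave 5855 genes and 42 pathway genes. Equal sums of FPKM gave 716 higher and 3138 lower genes in place of 1712 and 1565.
The replicate numbers gave no clear sign of pairing. Same-numbered libraries had correlations of 0.11, −0.03 and 0.12 of their deviations from the group means. Replicates 1 and 3 correlated best with their own number and replicate 2 did not. With 3 libraries per group such a check cannot exclude pairing. The replicate block gave 2065 called genes, 3 targets (SRXN1 at an adjusted p of 0.0558 from limma) and 18 pathway genes.
The sign turned only for genes that did not pass the test: HMOX1 (−0.10 with equal sums, −0.019 with quantile normalization), GCLC (0.13 with array weights, 0.026 without Vector replicate 1, and from −0.11 without LOC_OE replicate 2 to 0.039 without LOC_OE replicate 3) and KEAP1 (−0.059 with equal sums, −0.0047 with quantile normalization, −0.014 with array weights, and from −0.078 without LOC_OE replicate 1 to 0.36 without LOC_OE replicate 3). limma voom on the recovered reads called 3742 genes and the same number of targets, 4. The number of called targets stayed at 4 when the pseudocount was 0.1, when the variance trend was dropped, and when genes needed an average of 1 FPKM. Median-of-ratios rescaling left it at 4 too. That is no separate check, because the FPKM already rested on median-of-ratios sizes.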

Other observations

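Several genes of the lists stood far higher in LOC_OE replicate 1 than in any other library, chosen here after their values were seen. PRDX1, a peroxiredoxin and target of NRF2, was at 144, 134 and 130 FPKM in Vector and at 364, 146 and 146 FPKM in LOC_OE (adjusted p = 0.317 from limma). RBX1, the ring protein of the CUL3 ligase, was at 9.14, 6.85 and 7.04 FPKM in Vector and at 20.6, 10.9 and 9.49 FPKM in LOC_OE (adjusted p = 0.124 from limma). PIR, an iron-binding protein induced by NRF2, was at 0.424, 0.429 and 0.407 FPKM in Vector and at 1.67, 0.645 and 0.786 FPKM in LOC_OE (adjusted p = 0.131 from limma). The groups did not overlap for PRDX1 and RBX1, as for 45.3% of all genes tested. PIR passed the filter only through its LOC_OE libraries, so its lack of overlap was fixed in advance. It rested on as few as 19 reads in a library.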
